A study of Mus musculus with 60 samples.

Results

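The 10 circadian clock genes described here are the transcriptional activators Clock, Npas2 and Bmal1 (also called Arntl), the repressors Per1, Per2, Per3, Cry1 and Cry2, and the accessory-loop factors Nr1d1 and Dbp. They were chosen as a list of symbols, with no measured value used: in each library the estimated counts and the TPM (a length-corrected share of all transcripts) of all transcripts annotated to a gene were summed, which gave 10 of 35889 genes in 60 libraries. Every member had at least 146 estimated counts in every library (the lowest belonged to Cry1).

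The study asked how neurons active during cocaine seeking differ from neurons active during sucrose seeking. It used female and male Ai14:cFos-TRAP2 mice (Ai14xFosiCre in the labels), aged 8 to 16 weeks, in which a tamoxifen-dependent Cre at the Fos locus switches on a tdTomato reporter permanently in neurons that expressed Fos while 4-hydroxytamoxifen was present. All behaving mice had self-administered both cocaine and sucrose under alternating conditions, had undergone extinction and had been tested for cue-induced reinstatement of both. Punches of the accumbens (NAc, nucleus accumbens core in the labels) and of the prefrontal cortex (mPFC) from 3 mice of 1 sex were pooled, dissociated and sorted for NeuN, a neuronal marker. From each pool, 4 populations were collected: cocaine-seeking cells (tdTomato-positive, tagged with 4-hydroxytamoxifen after the cocaine test), sucrose-seeking cells (stained for cFos protein, 60 min after the sucrose test), overlapping cells (positive for both) and non-ensemble cells (positive for neither). With 3 pools per sex and region this gave 48 libraries. A further 12 libraries, 3 per sex and region, carry a code for naive in their titles. The labels give them the same treatment text as the others and do not say what naive stands for. The mice were kept on a reversed light cycle, and the hour of tissue collection is not given in the sources used here, so the levels belong to an unstated phase of the day. Replicates are pools of 3 mice, and the 4 populations of a pool number come from the same mice.

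In the clock loop, CLOCK or its paralogue NPAS2 pairs with BMAL1 on E-box sequences and switches on the Per and Cry genes. PER and CRY proteins then enter the nucleus and repress that pair, so that their own transcription falls again within about a day. NR1D1 (REV-ERB alpha) represses Bmal1 through REV-ERB/ROR elements, DBP activates genes through D-boxes, and NPAS2 is the partner of BMAL1 best known from the forebrain, including the striatum.

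The promoters in which a full copy of a clock element was found are shown, because these elements are how members act on each other. Windows of 300 bases (250 before and 50 after each annotated start; RefSeq, GRCm38.p6) matched 9 of the 10 members, all but Per2, in 13 windows. They were searched on both strands for 4 motifs that do not contain one another: the E-box CACGTG, the D-box TTATGTAA, the cAMP response element TGACGTCA and the REV-ERB/ROR element TAGGTCA. Capitals mark the matches.
Per3, chr4:151044616-151044915, minus strand, with D-boxes starting 205 and 158 bases before the start: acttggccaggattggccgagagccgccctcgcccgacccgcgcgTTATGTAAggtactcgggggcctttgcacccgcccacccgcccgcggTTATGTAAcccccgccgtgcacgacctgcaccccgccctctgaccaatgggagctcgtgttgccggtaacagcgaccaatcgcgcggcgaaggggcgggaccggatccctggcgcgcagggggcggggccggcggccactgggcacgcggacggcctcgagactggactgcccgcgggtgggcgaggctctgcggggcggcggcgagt
Cry1, chr10:85185005-85185304, minus strand, with an E-box starting 60 bases before the start: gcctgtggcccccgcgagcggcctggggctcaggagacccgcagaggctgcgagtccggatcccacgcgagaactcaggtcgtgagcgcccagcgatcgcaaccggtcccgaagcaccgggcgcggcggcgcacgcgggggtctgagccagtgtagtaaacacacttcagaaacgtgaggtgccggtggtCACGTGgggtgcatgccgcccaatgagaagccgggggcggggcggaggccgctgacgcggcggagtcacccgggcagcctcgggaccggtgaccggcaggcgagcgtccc
Per1, chr11:69098699-69098998, plus strand, with an E-box starting 166 bases before the start: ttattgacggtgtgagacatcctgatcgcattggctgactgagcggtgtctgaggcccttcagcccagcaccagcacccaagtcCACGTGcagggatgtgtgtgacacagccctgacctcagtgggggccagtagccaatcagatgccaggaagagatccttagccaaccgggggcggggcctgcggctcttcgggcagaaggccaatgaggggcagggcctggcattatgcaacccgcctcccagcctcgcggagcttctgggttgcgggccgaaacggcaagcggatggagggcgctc
Bmal1, chr7:113207261-113207560, plus strand, with a REV-ERB/ROR element starting at base 31 after the start: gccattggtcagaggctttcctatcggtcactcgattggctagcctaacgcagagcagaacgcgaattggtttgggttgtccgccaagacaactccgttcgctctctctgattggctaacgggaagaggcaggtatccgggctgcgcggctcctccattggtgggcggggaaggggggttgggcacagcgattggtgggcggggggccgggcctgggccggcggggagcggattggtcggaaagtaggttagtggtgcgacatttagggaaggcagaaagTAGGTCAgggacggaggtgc
Among 32851 mouse promoters of the same length, 7.15% held the E-box, 0.938% the D-box, 1.79% the cAMP response element and 2.61% the REV-ERB/ROR element. The other 9 windows of members held none of the 4 in full. A match is a description of these letters and says nothing of binding in these cells.

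The 48 libraries of the 4 sorted populations held 9933361 to 24500899 estimated counts, and the 12 naive libraries, which were quantified in a separate run, held 29238727 to 45299753. Some libraries went against their labels. All 8 female libraries of pool 2 had 12.1 to 20.4 CPM (counts scaled by library size) of the Y-linked gene Ddx3y, against 0.0666 to 2.27 CPM in the 16 libraries of the other 2 female pools. Slc17a7, a defining marker of cortical excitatory neurons, was higher in female NAc libraries (128 to 336 CPM) than in female mPFC libraries (17.6 to 80.9 CPM), and reached only 34.2 to 39.9 CPM in the male mPFC libraries of pool 2, against 268 to 653 CPM in those of male pools 1 and 3. The main results are also given without female pool 2 or male mPFC pool 2. No fit left out all the female mPFC libraries low in Slc17a7. Titles were used for the groups, and differ from the sex label in 2 libraries and from the description in 30. Although sorted for NeuN, the libraries also held RNA of astrocyte markers. Non-ensemble libraries had summed astrocyte markers of 4232 to 5433 CPM in NAc, beside 4629 to 5277 CPM of neuron markers. In mPFC the sums were 2841 to 5594 and 2348 to 4841 CPM.

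**Figure D1:**
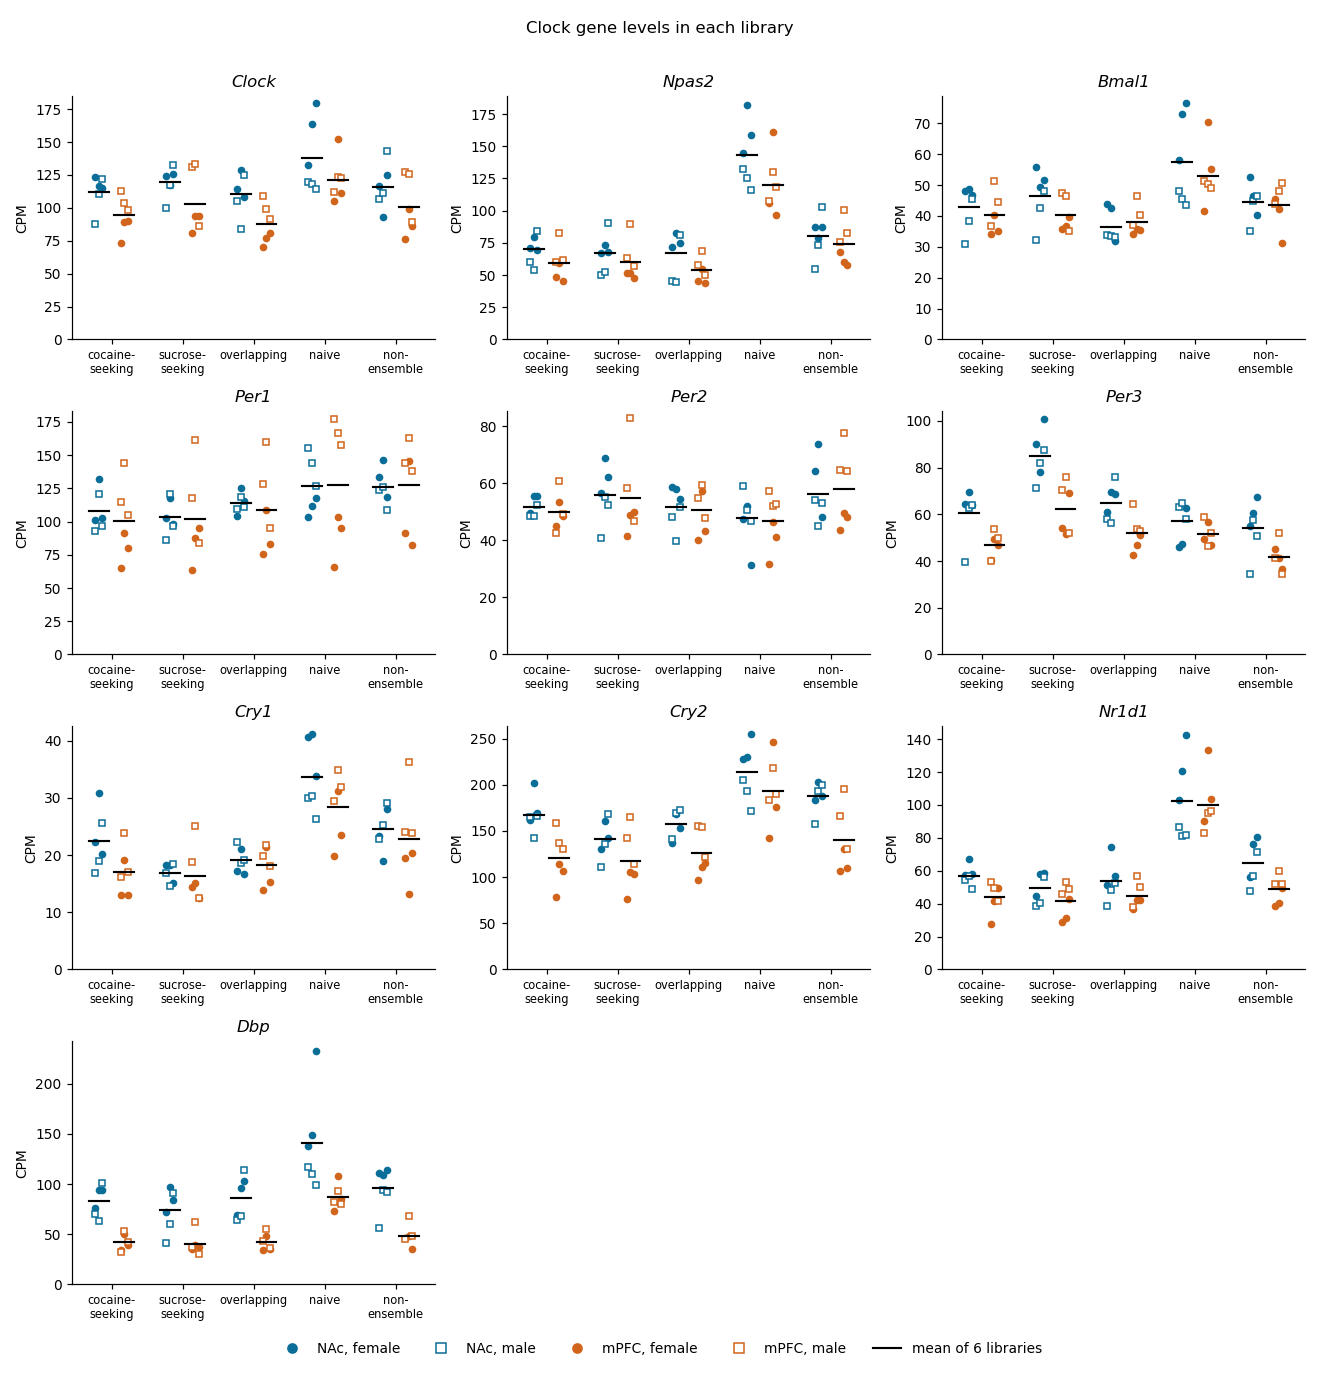
Level of each of the 10 clock genes in every library, in CPM (scaled over all 60 libraries; each panel has its own axis starting at 0). Populations run from cocaine-seeking to non-ensemble along the horizontal axis, NAc in blue and mPFC in orange, filled circles female and open squares male, and black lines mark means of 6 libraries; Per3 in NAc sucrose-seeking cells (71.2 to 101 CPM) stands above its level in NAc non-ensemble cells (34.6 to 67.3 CPM).

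All 10 genes were expressed in all 60 libraries. Across them CPM ranged from 70.6 to 180 for Clock (median 111), from 44.1 to 182 for Npas2 (median 71.6) and from 31.0 to 76.5 for Bmal1 (median 44.2). Among the repressors, Per1 had 63.2 to 178 CPM (median 112), Per2 31.4 to 82.7 CPM (median 51.7) and Per3 34.3 to 101 CPM (median 55.7). Their partners in repression, Cry1 and Cry2, had 12.4 to 41.1 CPM (median 20.0) and 76.4 to 255 CPM (median 158). Nr1d1 ranged from 27.9 to 142 CPM (median 53.2) and Dbp from 30.6 to 232 CPM (median 68.6), the widest span of the set from lowest to highest library as a ratio.

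Levels of different genes were compared per length, in TPM. In NAc non-ensemble cells the order was Dbp (150 ± 32.6 TPM, SD, n = 6), Cry2 (129 ± 23.8 TPM), Npas2 (83.8 ± 11.5 TPM), Per1 (79.9 ± 15.9 TPM) and Nr1d1 (67.8 ± 13.7 TPM), followed by Bmal1 (29.1 ± 4.52 TPM), Per3 (21.0 ± 5.70 TPM), Per2 (17.3 ± 2.54 TPM), Cry1 (16.9 ± 1.84 TPM) and Clock (16.8 ± 4.72 TPM). The step between Nr1d1 and Bmal1 was larger than the spreads of both. Dbp and Cry2, then Npas2, Per1 and Nr1d1, and then Per3, Per2, Cry1 and Clock lay within 1 SD of their neighbours. In mPFC non-ensemble cells Per1 came first (156 ± 85.7 TPM), followed by Cry2 (137 ± 49.2 TPM) and Dbp (96.9 ± 24.4 TPM), and these 3 were within each other's spread. TPM divides by an effective length that Salmon, the program that estimated the counts, set separately in each library. For Per1 that length averaged 758 bases in NAc sucrose-seeking libraries (407 to 1243) and 1952 bases in NAc non-ensemble libraries (1482 to 2940), so comparisons between populations were made on counts, with length-scaled counts as an alternative.

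The member that differed from non-ensemble cells in sucrose-seeking cells of both regions was Per3, a gene of the period family with a smaller part in keeping rhythm than Per1 and Per2, on chromosome 4 (151081373-151129140, minus strand, GRCm39). NAc sucrose-seeking libraries held 71.2 to 101 CPM of Per3 (median 84.6), against 34.6 to 67.3 CPM in NAc non-ensemble libraries (median 56.4). The ranges did not overlap, and Per3 was higher in the sucrose-seeking library of every one of the 6 pools. By edgeR's quasi-likelihood test with Benjamini-Hochberg adjustment, Per3 rose by 0.58 on the log2 scale (SE 0.13, adjusted p = 0.0011). The repressor Cry1 (chromosome 10, 84967560-85021252, minus strand) went the other way, with 14.6 to 18.5 CPM in sucrose-seeking cells (median 17.6) against 18.9 to 29.1 CPM in non-ensemble cells (median 24.3). These ranges did not overlap either, and Cry1 fell by 0.60 (SE 0.14, adjusted p = 0.0023). Both kept their calls with any 1 of the 24 NAc libraries left out, with changes of 0.55 to 0.72 for Per3 and -0.62 to -0.47 for Cry1.

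In this comparison 5 of the 10 members passed adjusted p under 0.05, beside 27.0% of the 27546 genes tested. An unadjusted p under 0.05 was found for 6 members, beside 10329 of the 27546 genes. Cry2, the paralogue of Cry1, had 111 to 168 CPM in sucrose-seeking cells (median 139) and 158 to 203 CPM in non-ensemble cells (median 190). On these counts it fell by 0.48 (SE 0.11, adjusted p = 0.0017), but its direction turned with length-scaled counts, as did those of Per1 and Nr1d1. Per1, which is also induced by neuronal activity, had 86.3 to 121 CPM against 109 to 146 CPM, and fell by 0.36 (SE 0.10, adjusted p = 0.011). Nr1d1 had 38.3 to 58.8 CPM against 47.5 to 80.4 CPM, and fell by 0.46 (SE 0.13, adjusted p = 0.011). These 3 ranges overlapped, but each of the 3 genes was lower in the sucrose-seeking library of all 6 pools. Cry2 kept its call with any 1 library left out. Per1 and Nr1d1 each lost it without any 1 of 6 libraries: female non-ensemble pool 2, female sucrose-seeking pool 1 and male sucrose-seeking pool 1 for both, female sucrose-seeking pool 3 and male non-ensemble pools 1 and 2 for Per1, and female and male non-ensemble pool 3 and male sucrose-seeking pool 2 for Nr1d1. Their adjusted p then reached at most 0.094 for Per1 and 0.086 for Nr1d1.

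Without female pool 2 all 5 members stayed called. Median log2 change was -0.35 over the members and 0.20 over all genes tested. Dbp had a change of -0.44 (SE 0.18, adjusted p = 0.067) and Npas2 of -0.34 (SE 0.17, adjusted p = 0.14); both were lower in the sucrose-seeking library of all 6 pools. In the fit with the replicate number as a block, which compares populations within the same mice, both passed, beside 32.9% of all genes. Dbp was at -0.47 (adjusted p = 0.00065) and Npas2 at -0.35 (adjusted p = 0.00090). Clock, Bmal1 and Per2 had changes of -0.03 (SE 0.11), -0.01 (SE 0.12) and -0.08 (SE 0.11), and none of them passed in either fit. Clock had 99.7 to 133 CPM in sucrose-seeking cells against 92.9 to 144 CPM in non-ensemble cells, which shows how far these ranges overlapped.

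With counts rescaled by each library's own transcript lengths, Per1 turned to a gain of 0.86 (adjusted p = 0.020), Cry2 to 0.30 (adjusted p = 0.23) and Nr1d1 to 0.34 (adjusted p = 0.24). Per3 (0.83, adjusted p = 0.0060) and Cry1 (-0.57, adjusted p = 0.027) kept their direction and passed. With that scaling 17.37% of all genes passed. With protein-coding transcripts alone, Per3 (0.42, adjusted p = 0.042), Cry1 (-0.42, adjusted p = 0.030), Cry2 (-0.34, adjusted p = 0.0066) and Dbp (-0.49, adjusted p = 0.030) passed, beside 26.84% of all genes. Per1 (-0.13, adjusted p = 0.31) and Nr1d1 (-0.26, adjusted p = 0.084) did not.

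**Figure D2:**
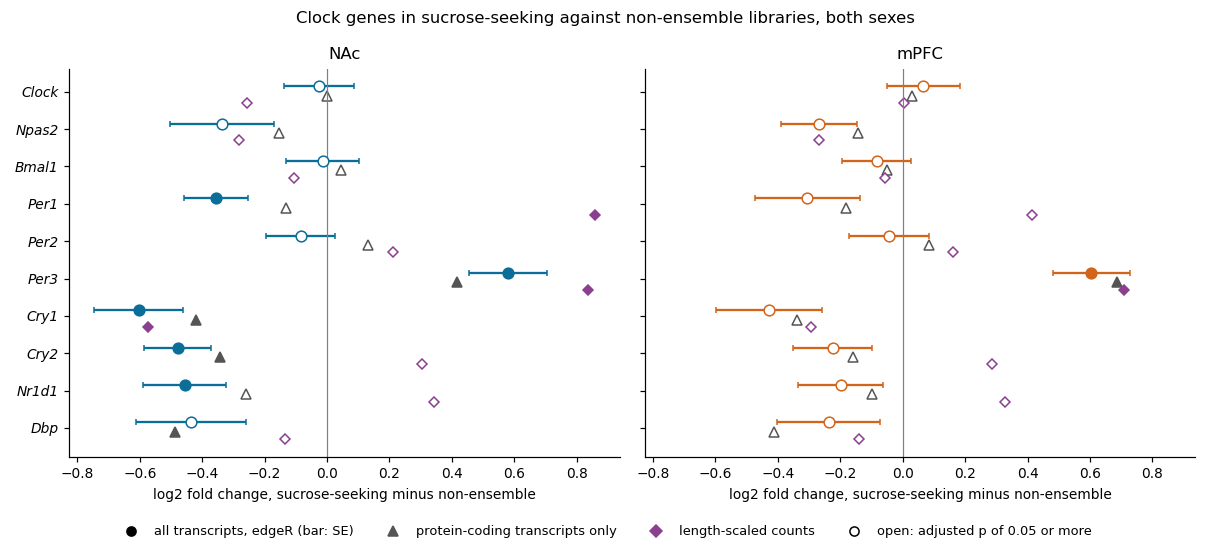
Log2 fold change of each clock gene in sucrose-seeking over non-ensemble cells (both sexes, 6 libraries each), NAc and mPFC, with bars of 1 SE; triangles use protein-coding transcripts alone, diamonds length-scaled counts, and open symbols have an adjusted p of at least 0.05. In NAc, Per3 (0.58) and Cry1 (-0.60) keep their direction on every scale, while Per1, Cry2 and Nr1d1 lie below 0 on counts and above 0 on length-scaled counts.

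Per3 has 5 annotated transcripts, of which 1 is protein-coding. The protein-coding transcript had 37.9 to 50.5 CPM in NAc sucrose-seeking cells and 20.2 to 47.8 CPM in NAc non-ensemble cells, with overlapping ranges. The other 4 transcripts together had 41.1 ± 5.99 CPM in sucrose-seeking cells (SD, n = 6) against 17.5 ± 3.13 CPM in non-ensemble cells, and 22.0 ± 5.74 CPM in cocaine-seeking and 24.5 ± 3.47 CPM in overlapping cells. For these 4 the sucrose-seeking and non-ensemble ranges did not overlap (33.3 to 50.4 against 12.8 to 20.7 CPM), so most of the Per3 difference in NAc lay outside the protein-coding transcript. Their largest part was the retained-intron transcript Per3-205, at 17.8 ± 2.25 CPM against 7.28 ± 1.53 CPM, followed by Per3-203, annotated for nonsense-mediated decay, at 13.3 ± 2.08 CPM against 6.44 ± 2.76 CPM. These are shares that Salmon assigned among overlapping transcripts, not counts of separate molecules.

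The share of reads on transcripts not annotated as protein-coding was a description with no test, and it was not computed over all genes. In NAc sucrose-seeking against non-ensemble cells it was 48.3 ± 3.37% against 32.9 ± 5.84% for Per3, 7.21% (4.45 to 9.57) against 2.05% (0.838 to 2.92) for Cry2, and 2.59% (1.75 to 3.85) against 0.953% (0.324 to 1.37) for Npas2. In these 3 genes the sucrose-seeking and non-ensemble ranges did not overlap. For Clock the shares were 20.8% (17.4 to 24.9) and 9.69% (1.75 to 17.5), which overlapped at their ends. Dbp had 25.7% (13.5 to 32.9) against 10.8% (6.29 to 16.2), Bmal1 23.99% against 15.1%, Cry1 3.99% against 2.19% and Nr1d1 3.40% against 2.36%, all with overlapping ranges. Per1 (0.148% against 0.409%) and Per2 (0.025% against 0%) had almost no such reads.

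**Figure D3:**
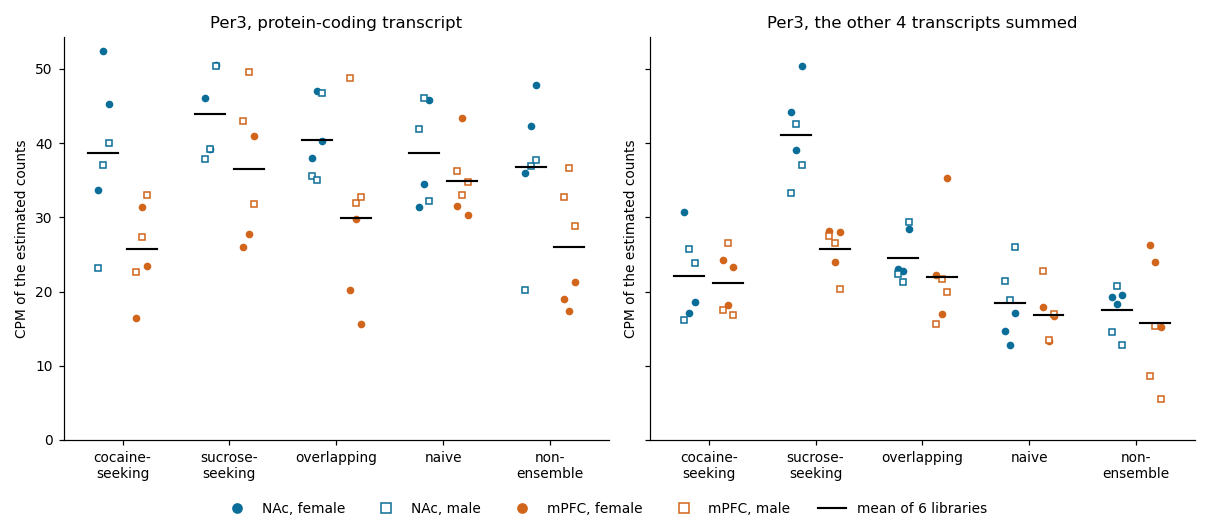
CPM of the protein-coding Per3 transcript and of the other 4 Per3 transcripts summed, per library, by region and population (filled circles female, open squares male). In NAc the 4 other transcripts of the sucrose-seeking libraries (33.3 to 50.4 CPM) lie above those of the non-ensemble libraries (12.8 to 20.7 CPM), while the protein-coding transcript overlaps.

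Several measures moved with the sucrose-seeking population in NAc. Summed markers of neurons were at 2995 to 3717 CPM in sucrose-seeking libraries against 4629 to 5277 CPM in non-ensemble libraries, with 6 of 6 fallen, and astrocyte markers at 2461 to 3805 against 4232 to 5433 CPM, with 6 of 6 fallen. Endothelial markers were at 110 to 327 against 70.7 to 145 CPM, with 7 of 7 risen, and mural cell markers at 65.5 to 149 against 60.5 to 80.8 CPM, with 4 of 5 risen. Microglial markers were at 126 to 192 against 147 to 223 CPM, with 1 of 7 fallen, and oligodendrocyte markers at 1876 to 3100 against 2527 to 3906 CPM, with 4 of 8 fallen. Among neuronal classes, interneuron markers were at 705 to 962 against 1011 to 1417 CPM, with 5 of 6 fallen, medium spiny neuron markers at 1113 to 2434 against 1457 to 2867 CPM, with 5 of 8 fallen, and cortical excitatory markers at 170 to 509 against 277 to 727 CPM, with 3 of 6 fallen. Activity-regulated markers were at 214 to 324 against 273 to 491 CPM, with 2 of 9 fallen and none risen. No marker on these lists was at 0 in a whole group. Pseudogenes took 4.88 to 7.71% of counts in sucrose-seeking libraries and 3.05 to 4.24% in non-ensemble libraries. The part of these measures in the clock gene differences was not tested. In libraries from sorted pools, fewer cells that express a gene and less RNA of that gene per cell cannot be told apart.

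In mPFC, Per3 also rose in sucrose-seeking cells. It had 51.7 to 76.1 CPM in sucrose-seeking libraries (median 61.6) against 34.3 to 52.0 CPM in non-ensemble libraries (median 41.3), and was higher in all 6 pools. The ranges met only at their ends, and the change was 0.60 (SE 0.12, adjusted p = 0.0031). It passed with protein-coding transcripts alone (0.69, adjusted p = 0.010), with length-scaled counts (0.71, adjusted p = 0.021), without female pool 2 (0.60, adjusted p = 0.016) and without male mPFC pool 2 (0.63, adjusted p = 0.011).

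Per3 was the 1 member of 10 to pass in mPFC, beside 13.0% of 28851 genes. Unadjusted, 3 members had a p under 0.05, beside 7893 of the 28851 genes. Cry1 had 12.4 to 25.1 CPM in sucrose-seeking cells against 13.3 to 36.2 CPM in non-ensemble cells, a change of -0.43 (SE 0.17, adjusted p = 0.099). Npas2 had 47.8 to 89.4 against 57.5 to 100 CPM, a change of -0.27 (SE 0.12, adjusted p = 0.16). With the replicate block 5 members passed, beside 25.3% of all genes: Per3 (0.60, adjusted p = 5.6e-05), Npas2 (-0.28, adjusted p = 0.0042), Per1 (-0.32, adjusted p = 0.013), Cry1 (-0.44, adjusted p = 0.016) and Cry2 (-0.23, adjusted p = 0.018). Median log2 change was -0.21 over the members and 0.12 over all genes tested. Neuron markers were at 1484 to 3498 CPM in mPFC sucrose-seeking libraries against 2348 to 4841 CPM in non-ensemble libraries, with 3 of 6 fallen, and endothelial markers at 129 to 164 against 50.3 to 122 CPM, with 4 of 7 risen. Of the other lists, 3 of 6 interneuron, 2 of 6 astrocyte, 3 of 8 oligodendrocyte and 1 of 7 microglial markers had fallen, 1 of 5 mural markers had risen, and 1 of 9 activity-regulated markers had risen and 1 fallen. The part of these markers in the result was not tested.

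Cocaine-seeking cells were then set against sucrose-seeking cells, in a comparison that shares its sucrose-seeking libraries with the one above. In NAc, Cry1 had 16.8 to 30.9 CPM in cocaine-seeking libraries (median 21.3) against 14.6 to 18.5 CPM in sucrose-seeking libraries (median 17.6), and rose by 0.47 (SE 0.14, adjusted p = 0.049), beside 5.29% of all genes called. This was the 1 member of 10 past the threshold, and it lost the call without any 1 of the 24 NAc libraries, with changes of 0.31 to 0.49 and adjusted p of up to 0.35. Per3 had 39.4 to 69.6 CPM (median 63.9) in cocaine-seeking cells against 71.2 to 101 CPM in sucrose-seeking cells. Those ranges did not overlap and Per3 was lower in all 6 pools, with a change of -0.41 (SE 0.13, adjusted p = 0.051; 0.0076 by DESeq2 and 0.035 by limma-voom). With the replicate block Per3 (-0.43, adjusted p = 0.0014), Cry2 (0.33, adjusted p = 0.0017) and Nr1d1 (0.30, adjusted p = 0.031) passed as well, beside 14.99% of all genes. In mPFC no member passed by edgeR, DESeq2 or limma-voom, beside 0.416% of all genes by edgeR. By edgeR 1 member had an unadjusted p under 0.05, beside 2394 of 28851 genes. Per3 had a change of -0.42 there (adjusted p = 0.17), and of -0.41 with the replicate block (adjusted p = 0.014, beside 5.56% of all genes). Marker levels moved in this comparison too. Microglial markers were at 296 to 384 CPM in NAc cocaine-seeking against 126 to 192 CPM in NAc sucrose-seeking libraries, with 7 of 7 risen, and at 189 to 369 against 95.9 to 131 CPM in mPFC, with 6 of 7 risen. In NAc, 5 of 6 astrocyte (3698 to 5283 against 2461 to 3805 CPM), 4 of 6 neuron (3721 to 4880 against 2995 to 3717 CPM) and 4 of 6 interneuron markers had risen, 5 of 7 endothelial (83.3 to 184 against 110 to 327 CPM) and 1 of 5 mural markers had fallen, and no activity-regulated, medium spiny, cortical excitatory or oligodendrocyte marker passed. Their part in the clock gene differences was not tested.

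Between cocaine-seeking and non-ensemble cells no member passed by edgeR, DESeq2 or limma-voom in NAc (0.145% of all genes by edgeR) or in mPFC (0.0901%). An unadjusted p under 0.05 was found for 1 member in NAc, beside 4628 of 27546 genes, and for 2 members in mPFC, beside 5543 of 28851 genes. Per1 had 93.2 to 132 CPM in NAc cocaine-seeking cells against 109 to 146 CPM in non-ensemble cells, a change of -0.23 (adjusted p = 0.26). With the replicate block its adjusted p was 0.024, beside 9.352% of all genes called. In mPFC the replicate block called Npas2 (-0.29, adjusted p = 0.0062) and Per1 (-0.34, adjusted p = 0.015), beside 15.78% of all genes. Median log2 change was -0.15 over the members in NAc and -0.17 in mPFC, and 0.08 and 0.10 over all genes tested. Microglial markers were at 296 to 384 CPM in NAc cocaine-seeking against 147 to 223 CPM in non-ensemble libraries, with 5 of 7 risen, and at 189 to 369 against 110 to 184 CPM in mPFC, with 6 of 7 risen. No marker of the other cell type lists passed, and the part of microglial markers in these values was not tested.

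Overlapping cells, which carried both tags, also had no member past the threshold by edgeR against non-ensemble cells, in NAc (1.97% of all genes) or in mPFC (0.568%). Unadjusted, 5 members had a p under 0.05 in NAc, beside 6200 of 27546 genes, and 2 members in mPFC, beside 5319 of 28851 genes. DESeq2 called Npas2 in mPFC (-0.47, adjusted p = 0.011) and no member in NAc, and limma-voom called none. With the replicate block 5 passed in NAc: Per3 (0.28, adjusted p = 0.036), Npas2 (-0.30, adjusted p = 0.010), Bmal1 (-0.28, adjusted p = 0.028), Nr1d1 (-0.28, adjusted p = 0.043) and Cry2 (-0.26, adjusted p = 0.011), beside 16.0% of all genes. Bmal1 had 32.0 to 43.9 CPM in overlapping cells against 35.2 to 52.8 CPM in non-ensemble cells, ranges that overlapped. In mPFC the block called Npas2 (-0.44, adjusted p = 0.00019) and Per3 (0.33, adjusted p = 0.028), beside 14.4% of all genes. Npas2 in mPFC overlapping cells had 44.1 to 68.9 CPM, against 57.5 to 100 CPM in non-ensemble cells. Microglial markers were at 337 to 471 CPM in NAc overlapping against 147 to 223 CPM in non-ensemble libraries, with 7 of 7 risen, and at 299 to 387 against 110 to 184 CPM in mPFC, with 6 of 7 risen. In NAc 2 of 6 neuron markers and in mPFC 3 of 8 oligodendrocyte markers had fallen. Their part in the result was not tested.

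Against sucrose-seeking cells, overlapping cells had no member past the threshold by edgeR, DESeq2 or limma-voom in NAc (1.09% of all genes by edgeR) or in mPFC (0.322%). By edgeR 2 members had an unadjusted p under 0.05 in NAc, beside 4143 of 27546 genes, and 1 member in mPFC, beside 2421 of 28851 genes. The block called Per3 (-0.31, adjusted p = 0.021), Bmal1 (-0.27, adjusted p = 0.046), Per1 (0.21, adjusted p = 0.034) and Cry2 (0.23, adjusted p = 0.036) in NAc, beside 10.73% of all genes. It called Clock (-0.23, adjusted p = 0.048) in mPFC, beside 5.743%. Between cocaine-seeking and overlapping cells 0 genes of the whole table and 0 members passed by edgeR in either region, and no member passed by DESeq2 or limma-voom. No member had an unadjusted p under 0.05, beside 774 of 27546 genes in NAc and 635 of 28851 genes in mPFC.

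Within the sexes, the Per3 rise of NAc sucrose-seeking cells was present in both. Female libraries had 90.2, 78.3 and 101 CPM in sucrose-seeking cells against 55.2, 60.6 and 67.3 CPM in non-ensemble cells of pools 1, 2 and 3. The change was 0.50 (SE 0.12, adjusted p = 0.014). Male libraries had 71.2, 81.8 and 87.4 CPM against 34.6, 57.6 and 50.6 CPM, a change of 0.70 (SE 0.21, adjusted p = 0.041). The sucrose-seeking libraries were above all non-ensemble libraries in each sex. In females Cry2 was the second of 2 members to pass (-0.46, SE 0.13, adjusted p = 0.027; 15.9% of all genes), with 144 ± 15.2 against 191 ± 10.6 CPM (SD, n = 3), and its direction turned with length-scaled counts (0.28). Its call was lost without any 1 of 5 libraries (sucrose-seeking pools 1 and 3, non-ensemble pools 2 and 3, overlapping pool 3), and that of Per3 without sucrose-seeking pool 1 or 3. In males Cry1 was the second of 2 (-0.67, SE 0.20, adjusted p = 0.045; 9.39% of all genes), with 16.9, 14.6 and 18.5 CPM against 22.8, 25.3 and 29.1 CPM. That call was lost without any 1 of the 12 male NAc libraries, and the male Per3 call without any 1 of 10 of them (cocaine-seeking pool 1 and overlapping pool 3 excepted), with Per3 changes of 0.55 to 0.88. Without female pool 2, 5 members were called in female NAc: Per3 (0.60, adjusted p = 0.012), Cry2 (-0.49, adjusted p = 0.017), Npas2 (-0.41, adjusted p = 0.040), Dbp (-0.58, adjusted p = 0.041) and Cry1 (-0.67, adjusted p = 0.043). The share of all genes called in that fit is not given here, so the gain in calls is not shown to be particular to the members.

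With the replicate block, Dbp, Per1, Npas2 and Nr1d1 also passed in female NAc (changes of -0.48, -0.38, -0.34 and -0.45), beside 26.45% of all genes, and Cry2 in male NAc (-0.47), beside 19.09%. Neither sex alone gave a member past the threshold in mPFC (0.025% of all genes in females and 0.205% in males), although DESeq2 called Per3 in females (0.54, adjusted p = 0.027) and in males (0.61, adjusted p = 0.037). By edgeR 1 member had an unadjusted p under 0.05 in females, beside 3862 of 27973 genes, and 2 members in males, beside 5118 of 25409 genes. In mPFC the block called Per3 in females (0.54, adjusted p = 0.0047), beside 13.76% of all genes. In males it called Per3 (0.64, adjusted p = 0.0077) and Cry1 (-0.59, adjusted p = 0.025), beside 17.22%. No member passed in any other comparison of populations within a sex and region. At most 3 of the 10 had an unadjusted p under 0.05, in female NAc cocaine-seeking against sucrose-seeking cells, beside 3925 of 25607 genes. DESeq2 called Cry1 (0.60, adjusted p = 0.041) and Cry2 (0.39, adjusted p = 0.044) in that comparison, and limma-voom none. In female NAc, 0.00781% of all genes passed for cocaine-seeking and 0.0391% for overlapping against non-ensemble cells, and 0.363% and 0.0234% for the same 2 populations against sucrose-seeking cells. In female mPFC the shares were 0.0 and 0.0608% against non-ensemble cells and 0.0214 and 0.0894% against sucrose-seeking cells. In male NAc they were 0.0, 0.12, 0.0241 and 0.112%, in male mPFC 0.0, 0.0, 0.0118 and 0.0157%, and 0.0% for cocaine-seeking against overlapping cells in all 4 sets. The replicate block called more members. In female NAc overlapping against non-ensemble cells it called Cry2 (-0.32, adjusted p = 0.026), beside 4.76% of all genes. Against sucrose-seeking cells it called Per3 (-0.38, adjusted p = 0.017) and Cry2 (0.36, adjusted p = 0.0050) in female NAc cocaine-seeking cells, beside 12.15%. In female NAc overlapping cells it called Per3 (-0.36, adjusted p = 0.031), beside 8.701%. Npas2 passed in male overlapping against non-ensemble cells of NAc (-0.45, adjusted p = 0.048, beside 5.707%) and mPFC (-0.55, adjusted p = 0.029, beside 4.117%). Per2 in male mPFC cocaine-seeking against non-ensemble cells also passed with the block (-0.44, adjusted p = 0.049), beside 8.328% of all genes.

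In tests of the difference between the sexes the smallest adjusted p of any member was 0.916, so no sex difference in these changes was shown.

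Between regions, all 10 members were higher in NAc than in mPFC in females, in each of the 4 sorted populations on counts, and 29 of these 40 differences passed, though some turned negative on length-scaled counts. Cocaine-seeking cells had 9 members called (27.4% of all genes), sucrose-seeking cells 7 (12%), overlapping cells 6 (25.6%) and non-ensemble cells 7 (37.8%). Dbp, a D-box activator whose transcript follows the clock closely (chromosome 7, 45354512-45359627, plus strand), differed most. Non-ensemble cells had 112, 109 and 114 CPM of Dbp in NAc against 46.1, 48.4 and 35.4 CPM in mPFC, a difference of 1.47 (SE 0.19, adjusted p = 6.2e-06). NAc was also above mPFC, with no overlap, in cocaine-seeking cells (76.6, 94.5 and 94.3 against 34.2, 50.5 and 39.7 CPM), sucrose-seeking cells (71.9, 96.9 and 84.4 against 35.2, 38.9 and 37.7 CPM) and overlapping cells (68.9, 96.6 and 103 against 34.3, 48.3 and 35.5 CPM). The differences there were 1.19 (adjusted p = 8.4e-05), 1.17 (adjusted p = 0.00021) and 1.28 (adjusted p = 3.6e-05), and all 4 kept their calls with any 1 of the 24 female libraries left out.

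Cry2, Nr1d1, Npas2, Per3 and Clock were the other 5 members called in all 4 female populations. Log2 differences ran from 0.60 to 0.93 for Cry2, 0.64 to 0.83 for Nr1d1, 0.45 to 0.76 for Npas2, 0.60 to 0.68 for Per3 and 0.44 to 0.72 for Clock. Bmal1 passed in cocaine-seeking (0.48) and sucrose-seeking cells (0.47), Per1 (0.60) and Cry1 (0.80) in cocaine-seeking cells alone, and Per2 in non-ensemble cells alone (0.50). Median log2 differences of the members lay between 0.46 and 0.62, while those of all genes tested lay between -0.33 and -0.21.

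These regional calls leaned on the libraries and the scaling. Without female pool 2, 17 of the 40 passed, and Dbp did in all 4 populations. The share of all genes called without that pool is not given here. With protein-coding transcripts alone 14 passed, and with length-scaled counts 10. All genes also lost calls. In cocaine-seeking, sucrose-seeking, overlapping and non-ensemble cells, 25.29, 10.1, 24.82 and 33.88% of them passed with protein-coding transcripts. With length-scaled counts 13.46, 3.28, 13.67 and 28.22% passed in the same order. With the replicate number as a block 36 passed, beside 35.35, 24.56, 33.94 and 45.44% of all genes for cocaine-seeking, sucrose-seeking, overlapping and non-ensemble cells; the sources used here do not state whether a number marks the same mice in both regions. Deviations of same-numbered female libraries of the 2 regions had a mean correlation of 0.102 (48 pairs), against -0.0512 for other numbers (96 pairs), and in males the means were -0.0353 and 0.0178. Deviations were taken from group means, so the value for other numbers follows from that for same numbers and adds nothing to it. On length-scaled counts Per1 in cocaine-seeking cells (-0.23) and, in non-ensemble cells, Nr1d1 (-0.24) and Cry2 (-0.12) turned negative. In males no member passed in any population by edgeR, DESeq2 or limma-voom (by edgeR, 0.98, 1.06, 0.907 and 1.8% of all genes for cocaine-seeking, sucrose-seeking, overlapping and non-ensemble cells). In that order 1, 0, 1 and 1 members had an unadjusted p under 0.05, beside 2173, 1687, 2154 and 3226 of 27233 genes. Male Dbp had positive differences of 0.86, 0.58, 0.87 and 0.59 in the same order, none past the threshold. Without male mPFC pool 2, or with the block, 0 male differences passed as well.

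**Figure D4:**
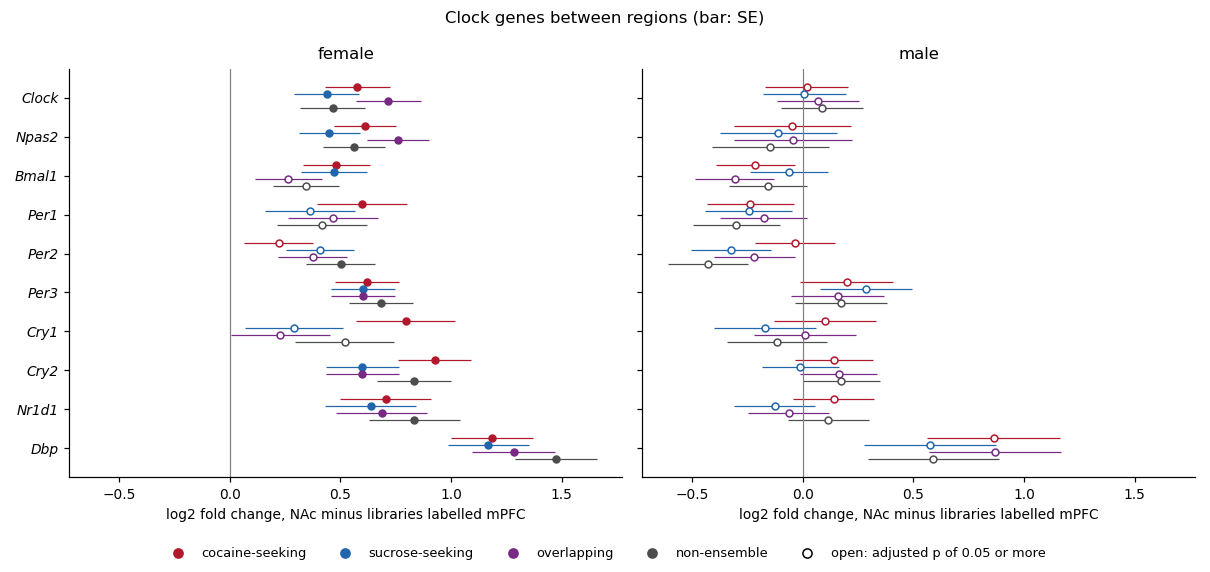
Log2 difference of NAc over mPFC for each clock gene and sorted population, females left and males right, 3 libraries per group, with bars of 1 SE. All female values lie above 0 on counts, with Dbp between 1.17 and 1.47, but Per1 in cocaine-seeking and Nr1d1 and Cry2 in non-ensemble cells turn negative on length-scaled counts; no male value passed.

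Marker levels moved with this regional comparison as well. Summed neuron markers were at 2995 to 5277 CPM in female NAc libraries against 1484 to 3233 CPM in female mPFC libraries, and in non-ensemble cells 5 of 6 were higher in NAc. Cortical excitatory markers, which should mark mPFC, were at 170 to 429 CPM in female NAc against 41.4 to 126 CPM in female mPFC. In males, where no member passed, Slc17a7 did not separate the regions either. It was at 157.5 to 588.5 CPM in NAc libraries (median 364.2) against 34.2 to 653 CPM in mPFC libraries (median 350.8). The medium spiny neuron marker Ppp1r1b was at 373.4 to 1256 CPM in male NAc (median 640.9) against 78.2 to 797.4 CPM in male mPFC libraries (median 306.5). All 8 markers of medium spiny neurons, the main NAc neurons, were higher in female NAc non-ensemble cells, as were 6 of 8 oligodendrocyte, 5 of 7 microglial, 3 of 6 astrocyte, 3 of 6 interneuron, 2 of 6 cortical excitatory and 2 of 5 mural markers, while 1 mural and 1 activity-regulated marker were lower. Their part in the clock gene differences was not tested.

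Comparing sexes directly in non-ensemble cells, no member passed in NAc by edgeR, DESeq2 or limma-voom (0.0254% of all genes by edgeR). There 0 members had an unadjusted p under 0.05, beside 2250 of 27546 genes. In mPFC Per2, a core repressor, passed (19.1% of all genes), with 43.7, 48.2 and 49.4 CPM in females, from lowest to highest, against 64.2, 64.6 and 77.4 CPM in males. The ranges did not overlap and the difference was -0.52 (SE 0.18, adjusted p = 0.046). It did not pass without male mPFC pool 2 (-0.44, adjusted p = 0.092), whose markers stood apart, without female pool 2 (-0.57, adjusted p = 0.063), or without any 1 of 16 of the 24 mPFC libraries, all 6 compared among them. On length-scaled counts the difference was -0.06 (adjusted p = 0.87), and with protein-coding transcripts alone -0.33 (adjusted p = 0.16). In females 4 of 6 neuron, 3 of 6 cortical excitatory and 4 of 9 activity-regulated markers were lower in this comparison, as was 1 marker each of interneurons, microglia and oligodendrocytes, and 1 of 7 endothelial markers was higher. Their part in the Per2 difference was not tested.

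Naive libraries were set against non-ensemble libraries of the same sex and region. They came from a separate quantification run and were deeper, so the run and the population cannot be told apart. Levels below are scaled over all 60 libraries and fold changes within each comparison, so that their ratios differ somewhat. Npas2 (chromosome 1, 39232705-39402323, plus strand) was the member most often called higher. Levels of Nr1d1 and Dbp were also higher in the naive libraries of every set, with separate ranges, though not always called. In female NAc, Npas2 had 144, 159 and 182 CPM in naive libraries against 78.5, 86.9 and 87.4 CPM in non-ensemble libraries, with no overlap, a rise of 0.70 (SE 0.14, adjusted p = 0.030). The lowest change of a member in female NAc was -0.7553, which did not pass. Npas2 was the 1 member called there, beside 2.77% of all genes. The call was lost without female pool 2 and without any 1 of 5 of the 6 libraries (naive pool 1 excepted), with changes of 0.63 to 0.77.

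In female mPFC 3 members passed, beside 26.7% of all genes. Nr1d1 (chromosome 11, 98658752-98666188, minus strand) had 90.0, 104 and 133 CPM in naive libraries against 38.5, 40.5 and 49.3 CPM in non-ensemble libraries, a rise of 1.29 (SE 0.22, adjusted p = 0.00069) and the largest of the members. Npas2 rose by 0.91 (SE 0.22, adjusted p = 0.0078), with 96.8 to 161 CPM against 57.5 to 68.0 CPM. Dbp rose by 0.97 (SE 0.22, adjusted p = 0.0045), with 72.7 to 108 CPM against 35.4 to 48.4 CPM. None of these 3 pairs of ranges overlapped. Nr1d1 and Dbp kept their calls with any 1 of the 6 libraries left out, and Npas2 lost its call without non-ensemble pool 3 (adjusted p = 0.054). Without female pool 2 all 3 passed, and Cry2 did too. On length-scaled counts Nr1d1 had a change of 0.58 (adjusted p = 0.15).

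In male NAc, Npas2 was again the 1 member called (16.4% of all genes), with 116, 125 and 132 CPM in naive libraries against 54.6, 73.6 and 103 CPM in non-ensemble libraries and a rise of 0.64 (SE 0.19, adjusted p = 0.045). The call was lost without non-ensemble pool 2 or any 1 naive library, and the change was 0.06 on length-scaled counts (adjusted p = 0.77). In male mPFC 3 members passed, beside 14.1% of all genes. Nr1d1 rose by 0.62 (SE 0.11, adjusted p = 0.0064), with 82.7, 95.3 and 96.4 CPM against 51.8, 52.1 and 59.5 CPM. Dbp rose by 0.53 on counts (SE 0.15, adjusted p = 0.049), with 80.2 to 93.0 against 45.8 to 68.3 CPM, but had a change of -0.22 on length-scaled counts. Per2 fell by 0.47 (SE 0.12, adjusted p = 0.034), with 51.9, 52.5 and 57.3 CPM against 64.2, 64.6 and 77.4 CPM. All 3 pairs of ranges were separate. Nr1d1 lost its call without naive pool 3 (adjusted p = 0.058), Per2 without any naive library or non-ensemble pool 2, and Dbp without any naive library or non-ensemble pool 1 or 3. Without male mPFC pool 2, Nr1d1 (0.72), Dbp (0.76) and Npas2 (0.48) were called.

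**Figure D5:**
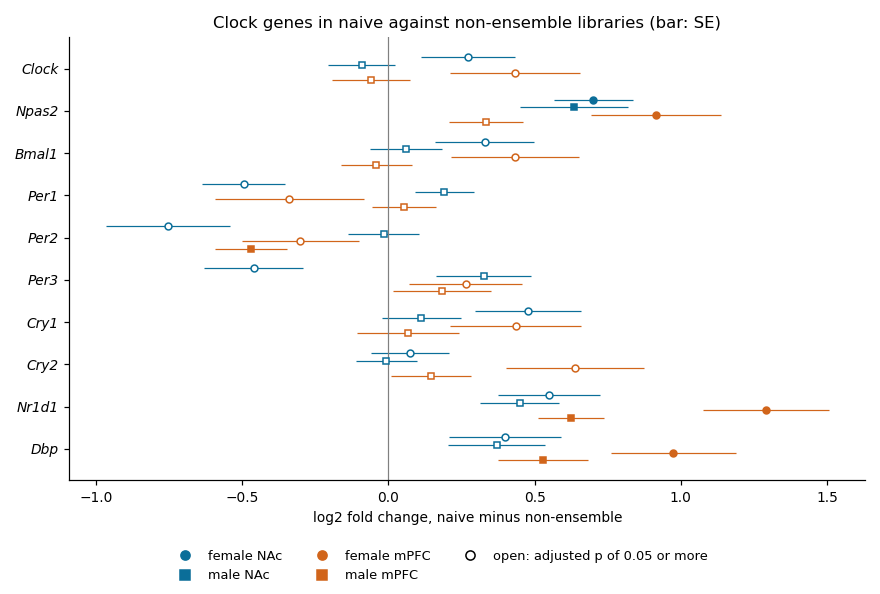
Log2 fold change of naive over non-ensemble libraries for each clock gene in the 4 sets of sex and region (3 libraries per group), with bars of 1 SE. Nr1d1 reaches 1.29 in female mPFC and 0.62 in male mPFC, and Npas2 0.70 and 0.64 in female and male NAc; Dbp in male mPFC is above 0 on counts and below 0 (-0.22) on length-scaled counts.

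Of 9 activity-regulated markers, 7 were higher in the naive libraries of female mPFC, and 6 were higher and 1 lower in those of male mPFC. In female mPFC naive libraries 6 of 6 cortical excitatory and 6 of 6 neuron markers were higher. In that set 6 of 7 microglial (238 to 380 against 110 to 136 CPM), 4 of 6 astrocyte (4908 to 8357 against 2841 to 3888 CPM) and 3 of 6 interneuron markers were higher too, while 2 of 7 endothelial and 1 of 6 interneuron markers were lower. In female NAc naive libraries 3 of 6 cortical excitatory (707 to 1077 against 277 to 429 CPM) and 2 of 7 microglial markers were higher. In male NAc naive libraries 4 of 9 activity-regulated (478 to 560 against 273 to 491 CPM), 3 of 8 medium spiny neuron (2995 to 3524 against 1457 to 2867 CPM), 4 of 7 microglial (297 to 306 against 147 to 204 CPM) and 3 of 5 mural markers were higher. In the same libraries 1 of 9 activity-regulated, 4 of 6 astrocyte (3191 to 3313 against 4693 to 5433 CPM) and 2 of 8 oligodendrocyte markers were lower. In male mPFC naive libraries 2 of 6 astrocyte and 2 of 8 oligodendrocyte markers were lower, and the other cell type lists had at most 1 marker called beside the activity-regulated ones. Levels still differed without calls. Summed medium spiny neuron markers were at 2059 to 2541 CPM in these naive libraries against 360 to 1786 CPM in non-ensemble libraries, with no overlap. Cortical excitatory markers were at 336 to 440 against 65.1 to 889 CPM. Their part in the clock gene differences was not tested.

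Other genes of the clock were followed as a list of 18. In NAc sucrose-seeking against non-ensemble cells 8 of the 18 passed, 2 higher and 6 lower, with a median of -0.21, beside 27.0% of all genes and an all-gene median of 0.20. Csnk1d, a kinase that phosphorylates PER proteins, fell by 0.53 (62.1 against 85.4 CPM, adjusted p = 0.00022), and Hlf, a D-box factor related to DBP, fell by 0.63 (82.0 against 121 CPM, adjusted p = 0.00036). Bmal2, a paralogue of Bmal1, rose by 0.99 (20.6 against 9.75 CPM, adjusted p = 0.00065), and Timeless rose by 0.67 (67.2 against 40.3 CPM, adjusted p = 0.0015). In mPFC 4 of 18 passed, beside 13.0% of all genes, with a median of -0.13 against 0.12 over all genes: Hlf (-0.42, adjusted p = 0.0079), Bmal2 (0.56, adjusted p = 0.012), Rorb (-0.36, adjusted p = 0.022), a nuclear receptor that binds REV-ERB/ROR elements, and Csnk1d (-0.40, adjusted p = 0.024). Csnk1d also passed in NAc for cocaine-seeking (0.33, adjusted p = 0.042; 5.29% of all genes) and overlapping cells (0.38, adjusted p = 0.044; 1.09%), each against sucrose-seeking cells.

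Between regions in females, 14 of the 18 passed in cocaine-seeking cells (13 higher in NAc, beside 27.4% of all genes), 6 in sucrose-seeking cells (all higher, beside 12%), 12 in overlapping cells (11 higher, beside 25.6%) and 14 in non-ensemble cells (12 higher, beside 37.8%). In non-ensemble cells the D-box factors Hlf (1.00) and Tef (1.03), the nuclear receptor Rora (1.01) and the repressor Bhlhe41 (0.96) were higher in NAc. Timeless was lower in NAc in cocaine-seeking (-0.65), overlapping (-0.64) and non-ensemble cells (-1.07). Rora was also called in male cocaine-seeking (0.68), sucrose-seeking (0.69) and non-ensemble cells (0.85), where no member was. Between naive and non-ensemble libraries 8 of 18 passed in female mPFC (26.7% of all genes), 7 of them higher, with Hlf at 1.60 and Rorb at 1.17.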

How the data were processed

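Estimated counts and TPM per transcript were deposited by the authors, 1 table per library, made with Salmon against a GRCm39 transcriptome after trimming with cutadapt, with no normalization of the counts. Transcripts were assigned to genes through GENCODE release 39 (116085 of 117209 matched; 0.932 to 7.10% of counts per library fell on the rest, which were left out of all tests), and both units were summed per gene. Summed counts were rounded and tested with edgeR 4.0.16 in R 4.3.3, with TMM factors, a filter by group and the quasi-likelihood test. Benjamini-Hochberg adjustment ran over all genes tested, and genes were called at an adjusted p under 0.05. The study named edgeR with a stricter cut-off of 0.01, and also required the log2 change to exceed 0.75 in either direction. Its thresholds, where used here as an alternative, are these requirements together. SE was taken from the log2 fold change and the F statistic. Groups came from the titles. DESeq2 1.42.0, limma 3.58.1 (voom), other scalings, filters and designs, length-scaled counts, the replicate block, leaving out each library and the study's thresholds were the alternatives. Protein-coding transcripts alone, and leaving out female pool 2 or male mPFC pool 2, were added after seeing the data. For the fits without these pools the share of all genes called is not given here.

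The 4 populations of 1 pool number were sorted from the same mice, so the numbers pair them. Deviations of same-numbered libraries had mean correlations of 0.0721 to 0.158 within sex and region, against -0.0791 to -0.0357 for other numbers. Because deviations were taken from group means, the values for other numbers follow from those for same numbers and are no separate evidence of pairing. Pools, not mice, are the replicates. The members and all gene lists were chosen with earlier results of these data known. Named genes are the 10 members and, per comparison, up to 4 of the 18 other clock genes by smallest adjusted p. On simulated data with 200 changed genes, the test for NAc sucrose-seeking against non-ensemble cells (26740 genes) recovered 28% of log2 changes of 0.5, 90% of changes of 1 and all larger ones, with 8 false calls. Recovery at 0.5 and 1 was 8% and 80% for that comparison in female NAc (24603 genes, 6 false calls), 6% and 66% between regions in female sucrose-seeking cells (28132 genes, 11 false calls), and 12% and 60% for naive against non-ensemble libraries in female NAc (20712 genes, 6 false calls). The simulated libraries were drawn independently, with no pairing by pool, and the 200 changed genes were picked among well-counted genes. In the data 27.0% of genes were called for NAc sucrose-seeking against non-ensemble cells, so the adjustment was less strict there. The recovery rates hold for the simulated setting and do not give the power in these data. Depth was 9933361 to 24500899 counts in sorted and 29238727 to 45299753 in naive libraries, which covers counting error only.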

Additional observations from a re-analysis of the deposited data

Results flagged for a closer look

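Groups held 3 libraries each, so single libraries far from their group were not tested. In 9 pairs of groups, the pools of each group all went the same way, opposite to the pools of its partner group. These pairs came from a search over all members and many comparisons. With 3 pools per group, random signs alone would also give some such pairs in a search of that size. How many was not computed, so 9 was not shown to exceed that number and the pairs are listed as a description. In NAc, Npas2 had a log2 change of 0.21 in females and -0.13 in males for overlapping against sucrose-seeking cells, and of -0.068 in females and 0.22 in males for cocaine-seeking against overlapping cells. In mPFC, Per2 had a change of 0.090 in females and -0.44 in males for cocaine-seeking against non-ensemble cells. The difference between the sexes was tested by edgeR for these 3 and did not pass (adjusted p of 1, 1 and 0.92).

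The difference between NAc and mPFC also ran opposite ways in females and males for Per1 in cocaine-seeking cells (0.60 and -0.24), and in non-ensemble cells for Bmal1 (0.35 and -0.16), Per1 (0.42 and -0.30) and Per2 (0.50 and -0.43). Male mPFC pool 2 and female pool 2, which stood apart in their markers, enter these values. In female cocaine-seeking against overlapping cells, Cry1 had a change of 0.40 in NAc and -0.15 in mPFC, and Npas2 of -0.068 in NAc and 0.10 in mPFC. These 6 differences between groups were not tested.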

How the results depend on the processing

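Of 49 called differences of members, 6 stayed called in every alternative and 21 with every library left out in turn. In 521 other alternatives, 387 kept their call, 126 lost it and 8 turned sign, all 8 with length-scaled counts: Cry2 in female NAc sucrose-seeking against non-ensemble cells (0.28), Nr1d1 (0.34), Per1 (0.86) and Cry2 (0.30) in that comparison of both sexes, Per1 in female cocaine-seeking cells between regions (-0.23), Nr1d1 (-0.24) and Cry2 (-0.12) in female non-ensemble cells between regions, and Dbp in male mPFC naive against non-ensemble libraries (-0.22). That scaling changes each library's counts by its own transcript lengths; other causes were not tested. The length-scaled fit moved the median of all genes by between -0.11 and 0.13, and DESeq2's scaling by -0.11 and -0.10 between regions in female cocaine-seeking and overlapping cells and by 0.12 for female mPFC naive libraries; protein-coding transcripts alone moved it by between -0.18 and 0.19. Leaving out 1 library turned no sign in 984 fits and ended 168 calls.

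The share of all genes called also moved between fits. In NAc of both sexes, it was 26.98% for sucrose-seeking against non-ensemble cells, 17.37% with length-scaled counts and 32.9% with the replicate block. For cocaine-seeking against sucrose-seeking cells it was 5.286, 0.003668 and 14.99% in that order. Most counts below stand without such a share, so they describe the fits and are no result about the members. Counts of members called, over all comparisons of a set, moved as follows. In both sexes of NAc 6 were called, 3 with length-scaled counts, 21 with the replicate block and 0 with the study's thresholds (3 to 7 without 1 library). Per3, Cry2 and Cry1 in NAc sucrose-seeking against non-ensemble cells met the 0.01 cut-off. They missed the study's thresholds because their log2 changes were smaller than 0.75. In both sexes of mPFC 1 was called, 4 with DESeq2, 2 with its size factors or the likelihood-ratio test, 11 with the replicate block and 0 with the study's thresholds (1 to 3). In female NAc 2 became 9 with DESeq2, 4 with its size factors, 0 with length-scaled counts or the study's thresholds, 10 with the block and 5 without female pool 2 (0 to 5). In male NAc 2 became 1 with DESeq2's size factors or no filter, 0 with length-scaled counts, only the groups compared, protein-coding transcripts or the study's thresholds, and 4 with the block (0 to 1). Female and male mPFC had 0, and each 1 with DESeq2, and 1 and 4 with the block (0 to 0 in both).

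Between regions in females 29 became 10 with length-scaled counts, 14 with protein-coding transcripts, 8 with the study's thresholds and 17 without female pool 2 (22 to 32); with the replicate number as a block 36 passed, though no source used here says whether a number marks the same mice in both regions. Between sexes in mPFC 1 became 5 with DESeq2, 4 with its size factors, 2 with length-scaled counts and 0 with no filter, only the groups compared, protein-coding transcripts, the study's thresholds or without male mPFC pool 2 (0 to 3). Between naive and non-ensemble libraries, female NAc had 1, but 4 with DESeq2, 2 with the likelihood-ratio test or protein-coding transcripts, 3 with no filter, and 0 with length-scaled counts, the study's thresholds or without female pool 2 (0 to 1). Female mPFC had 3, and 5 with protein-coding transcripts (2 to 5). Male NAc had 1, 2 with DESeq2, the likelihood-ratio test, length-scaled counts, voom or no filter, and 0 with the study's thresholds (0 to 2). Male mPFC had 3, 1 with length-scaled counts or protein-coding transcripts and 0 with the study's thresholds (0 to 3). No paired fit was made for naive libraries, whose numbers are not stated to share mice with the sorted pools.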

Other observations

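The effective length that Salmon gave Clock, in bases, set the male naive libraries apart: 2555 to 3641 in male NAc naive and 1886 to 2931 in male mPFC naive libraries, against 7657 to 9341 and 7980 to 9506 in the female naive libraries of the same regions. Clock on counts did not pass in either male comparison with non-ensemble cells (-0.09, adjusted p = 0.61 in NAc and -0.06, adjusted p = 0.80 in mPFC by edgeR), whereas on length-scaled counts it was higher in both (1.25, adjusted p = 0.0040 and 1.09, adjusted p = 0.013).

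On CPM scaled over all 60 libraries, 8 of the 10 members, all but Per2 and Per3, had their highest means of the 5 populations in the naive libraries of both regions. The same count was not made over all genes. For Per1 the margin was small in both regions (in NAc, 127 CPM in naive libraries against 126 CPM in the next population). Female naive libraries had 103 to 118 CPM of Per1 against 119 to 146 CPM in non-ensemble libraries of NAc, and 65.6 to 104 against 82.1 to 146 CPM in mPFC. Male naive libraries had 127 to 156 against 109 to 126 CPM in NAc, and 158 to 178 against 138 to 163 CPM in mPFC. Npas2 averaged 143 ± 24.2 CPM in NAc naive libraries (SD, n = 6) against 80.7 ± 16.3 CPM in NAc non-ensemble libraries, and Cry1 33.7 ± 6.02 CPM against 24.6 ± 3.72 CPM.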
